A study of Mus musculus with 14 samples.

Results

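Insulin signalling and glucose uptake in adipose tissue were followed through 10 genes, chosen by name: the receptor gene Insr, the docking proteins Irs1 and Irs2, the PI3-kinase subunit Pik3r1, the kinase Akt2, its target Tbc1d4, the glucose transporters Slc2a4 and Slc2a1, and the enzymes Pck1 and Hk2. The choice was made with earlier results of these data known. All 10 were found, each as 1 row, among 54955 genes of the deposited table. The table gives RNA levels in adipose tissue from C57BL/6 mice, taken in postnatal week 21, as 7 libraries labelled KO-Dectin1 (KO, replicates 1 to 7) and 7 labelled wild type (WT, replicates 3 to 9), each from 1 mouse. Dectin-1 is the β-glucan receptor of myeloid cells and is encoded by Clec7a. All the mice share the strain and the age, and the labels give neither the fat depot, the diet nor which part of Clec7a was deleted. The design compares adipose RNA between these groups.

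Insulin binds its receptor tyrosine kinase, which phosphorylates the IRS docking proteins. These recruit PI3-kinase through its p85 regulatory subunit, and the lipid it makes brings AKT to the membrane. In fat and muscle, AKT2 phosphorylates TBC1D4 (AS160), a brake on the Rab proteins of GLUT4 vesicles, so that GLUT4 moves to the cell surface and glucose enters. Much of this control acts on proteins and on where they sit in the cell, which RNA levels do not show.

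Clec7a was measured in every library. It stood at 6.94 ± 2.61 TPM in KO, with 10.99 ± 5.99 TPM in WT (n = 7 each, SD; log2 fold change -0.48 ± 0.33 SE, limma adjusted p = 0.59). Since the value sums over the exons of the gene and the deleted part is not known, it does not check the genotype, and KO and WT are the labels' names throughout. The adipose label fits the markers: all 10 adipocyte markers were at or over 1 TPM in 7 or more libraries, and their summed level ran from 7829 to 36315 TPM in KO and from 15055 to 31273 TPM in WT. The libraries were not alike in their other cell types. KO replicate 7 and WT replicates 4 and 7 had Cd79a, a B-cell receptor subunit, under 10 TPM and the 8 B-cell markers at a sum of 2.51 to 7.85 TPM, against 474 to 1939 TPM in the other 6 KO libraries and 899 to 1386 TPM in the other 5 WT libraries. Skeletal muscle markers summed to over 1000 TPM in 3 KO and 4 WT libraries.

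The start regions of 3 of the genes are shown. The docking proteins share a motif arrangement, and Pik3r1 has 2 listed starts that a gene-level value adds together. Akt2 also has several listed starts, which are not printed. RefSeq promoters of mouse build GRCm38.p6, 250 bases before to 50 bases after a start, matched 8 of the 10 genes. Insr and Slc2a4 were the others. Each is printed 5′ to 3′ on the strand of its gene, which is the minus strand for all 4. Capitals mark letters found on either strand: the GC box GGGCGG (bound by Sp1-type factors), the E-box CACGTG, the insulin response sequence TGTTTTG, the TATA box TATAAA and TGACG, the core of the cAMP response element. The full element TGACGTCA and the GTAAACA form of the FOXO site were also searched and are in none of the 4. Absence of that form does not speak for other forms of the site.
Irs1, chr1:82291390-82291689: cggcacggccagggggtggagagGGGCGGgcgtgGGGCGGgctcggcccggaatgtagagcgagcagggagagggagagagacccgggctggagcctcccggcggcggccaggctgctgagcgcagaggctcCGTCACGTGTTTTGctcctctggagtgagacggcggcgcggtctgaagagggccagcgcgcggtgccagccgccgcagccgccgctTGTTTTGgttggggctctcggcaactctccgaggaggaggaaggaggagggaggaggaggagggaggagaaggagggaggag
Irs2, chr8:11008880-11009179: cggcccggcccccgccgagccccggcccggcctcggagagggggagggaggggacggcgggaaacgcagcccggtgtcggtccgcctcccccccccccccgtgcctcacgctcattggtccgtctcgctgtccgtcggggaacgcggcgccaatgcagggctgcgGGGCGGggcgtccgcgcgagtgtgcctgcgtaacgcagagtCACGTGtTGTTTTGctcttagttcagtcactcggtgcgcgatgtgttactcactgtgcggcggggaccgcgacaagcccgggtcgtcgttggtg
Pik3r1, upstream start, chr13:101768168-101768467: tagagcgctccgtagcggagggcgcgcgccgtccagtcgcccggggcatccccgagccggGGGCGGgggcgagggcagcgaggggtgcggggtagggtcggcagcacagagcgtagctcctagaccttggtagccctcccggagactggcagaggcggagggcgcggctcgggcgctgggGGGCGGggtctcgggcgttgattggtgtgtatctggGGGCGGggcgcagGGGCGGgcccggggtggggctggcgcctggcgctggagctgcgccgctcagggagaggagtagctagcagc
Pik3r1, downstream start, chr13:101692581-101692880: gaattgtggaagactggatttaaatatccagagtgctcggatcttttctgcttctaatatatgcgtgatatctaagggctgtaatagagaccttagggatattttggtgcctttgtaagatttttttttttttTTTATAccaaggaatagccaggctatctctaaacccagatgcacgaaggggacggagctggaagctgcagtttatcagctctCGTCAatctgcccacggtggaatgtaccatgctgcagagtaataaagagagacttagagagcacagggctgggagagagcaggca
The Irs1 and Irs2 windows each hold an E-box beside an insulin response sequence in the same orientation. In Irs1 the E-box lies at -115 to -110 from the start and the TGTTTTG at -111 to -105, so that they overlap by 2 bases; a TGACG on the opposite strand at -118 to -114 overlaps the E-box as well. In Irs2 the E-box lies at -44 to -39 and the TGTTTTG at -37 to -31. Among 32851 mouse promoters of this length, 7.15% hold the E-box, 6.28% hold TGTTTTG and 0.408% hold both, at any distance. The share that holds them side by side was not counted. The 2 Pik3r1 windows differ from each other: the upstream one holds 4 GC boxes and is 75.7% G and C, while the downstream one holds none, with a TATAAA on the opposite strand at -117 to -112. GC boxes are in 35.7% of all promoters, 4 or more in 5.49%, TATAAA in 13.6% and TGACG in 20.8%. A match is a run of letters and not evidence of binding.

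None of the 10 genes passed the test between KO and WT. The test was limma on log2(TPM + 1), fitted to 14719 genes that reached 1 TPM in 7 or more libraries, a filter that all 10 passed, with Benjamini-Hochberg adjustment over those genes. Over all of them 3 genes, or 0.0204%, were called at an adjusted p under 0.05, each lower in KO. At an unadjusted p under 0.05, 1 of the 10 stood (Akt2, lower in KO), against 11.4% of all genes, 4.67% higher and 6.74% lower. Between KO and WT, log2 fold changes of the 10 were positive for 4 and negative for 6, with a median of -0.08, beside 54.6% positive, 45.4% negative and a median of 0.04 over all genes. In none of the 10 did the 7 KO libraries lie wholly above or below the 7 WT libraries, which held for 0.319% of all genes. With library weights 5.59% of all genes were called, and again none of the 10.

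**Figure D1:**
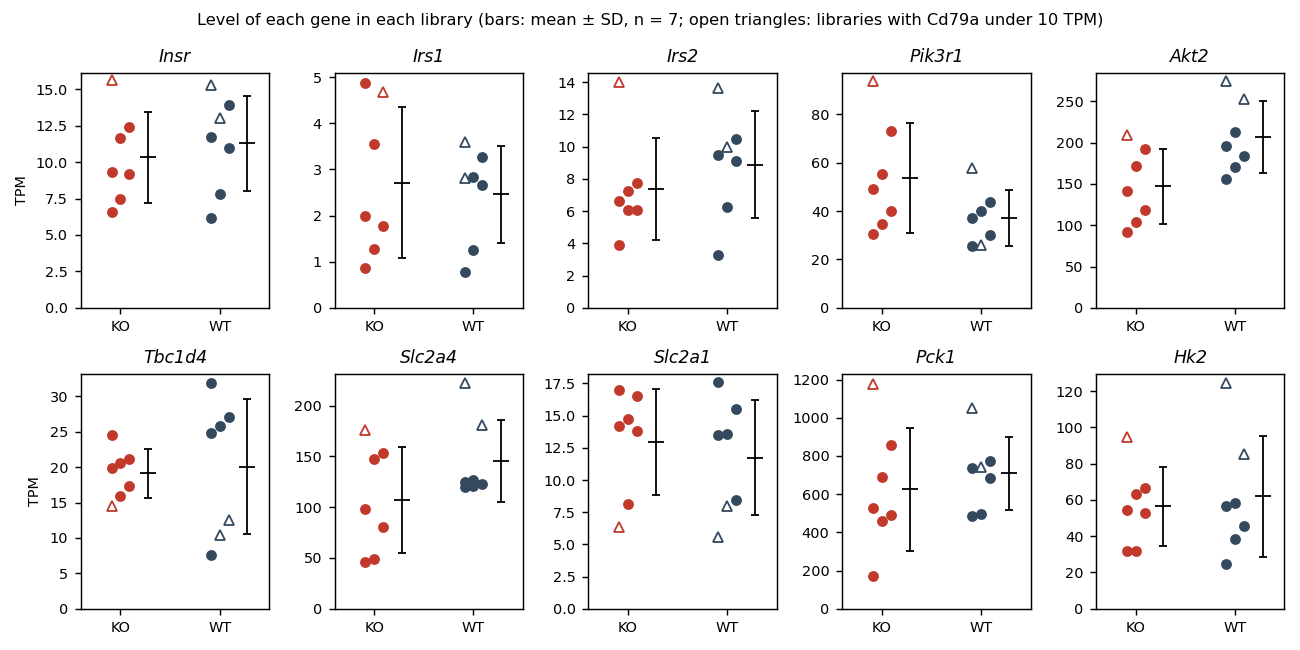
Level of each of the 10 genes in TPM in the KO (left, red) and WT (right, blue) libraries, 1 point per library; bars are the mean ± SD of 7 libraries and open triangles are the 3 libraries with Cd79a under 10 TPM. KO and WT overlap in every panel, and the open triangles hold the highest Slc2a4 and Hk2 values of both groups.

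The 10 genes span a wide range of level, and TPM, being per length, allows genes to be compared. Pck1 was the most abundant at a mean of 668 TPM over the 14 libraries, followed by Akt2 at 177, Slc2a4 at 126, Hk2 at 59.2, Pik3r1 at 45.5, Tbc1d4 at 19.6, Slc2a1 at 12.4, Insr at 10.8, Irs2 at 8.13 and Irs1 at 2.59 TPM. Each stood above the next in all 14 libraries, save for 3 neighbours. Hk2 was above Pik3r1 in 10 of 14 libraries, Tbc1d4 above Slc2a1 in 13 and Slc2a1 above Insr in 9, so the order within those pairs is not fixed.

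At the top of the pathway, the receptor and the docking proteins showed no difference beyond the spread. Insr, the insulin receptor, stood at 6.61 TPM at the lowest, 9.34 at the median and 15.6 at the highest in KO, against 6.18, 11.7 and 15.3 TPM in WT. The ranges nearly coincide, and the log2 fold change was -0.11 (95% interval -0.57 to 0.35, limma adjusted p = 0.83). Igf1r, the IGF-1 receptor that pairs with the same docking proteins, was lower than Insr in all 14 libraries, so that Insr held 83.0% ± 4.3 of the summed TPM of both receptor genes in KO, with 85.0% ± 3.8 in WT (n = 7 each, SD; by exact permutation p = 0.35).

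Irs1 and Irs2 were the least abundant of the 10. Irs1 ran from 0.86 through a median of 1.99 to 4.88 TPM in KO and from 0.77 through 2.81 to 3.6 TPM in WT (log2 fold change 0.05, 95% interval -0.59 to 0.69, limma adjusted p = 0.95). Irs2 ran from 3.9 through 6.62 to 14.01 TPM in KO and from 3.25 through 9.48 to 13.6 TPM in WT (log2 fold change -0.23, 95% interval -0.81 to 0.36, limma adjusted p = 0.73). Values this close to the added 1 TPM understate fold changes on the log2(TPM + 1) scale. The docking protein gene with the highest level was neither of them. Irs3, a docking protein of rodent fat, averaged 18.4 ± 11.8 TPM in KO, with 22.8 ± 6.5 TPM in WT (n = 7 each, SD), above Irs2 and Irs1 in all 14 libraries, and Irs4 was listed at 0 in each. Of the summed TPM of Irs1 to Irs4, Irs2 held 28.4% ± 7.4 in KO and 25.9% ± 6.8 in WT, and Irs1 held 9.59% ± 3.35 in KO, with 7.07% ± 2.27 in WT (n = 7 each, SD; by exact permutation p = 0.53 and 0.13).

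Pik3r1 was the one gene of the 10 with a higher KO value at every alternative tried, although it did not pass. Pik3r1 encodes p85α and shorter forms of the regulatory subunit, which stabilise the catalytic subunit and dock it on IRS proteins. It stood at 30.6 TPM at the lowest, 49.2 at the median and 93.6 at the highest in KO, against 25.5, 37.3 and 57.7 TPM in WT. The KO median was above the WT median, 2 KO libraries (replicates 2 and 7) were above every WT library, and the other 5 lay within the WT range. The log2 fold change was 0.47 ± 0.25 (SE; 95% interval -0.06 to 1.01, limma adjusted p = 0.48). Without the 3 libraries with Cd79a under 10 TPM, it was 0.37 ± 0.22 (limma adjusted p = 0.60), and with library weights 0.17 ± 0.18 (limma adjusted p = 0.59).

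Within its family the share of Pik3r1 was larger in KO before correction. Pik3r2, which encodes p85β, stood at 26.3 ± 5.1 TPM in KO and 27.8 ± 5.8 TPM in WT, and Pik3r3 at 2.73 ± 0.50 TPM in KO, with 2.16 ± 0.79 TPM in WT (n = 7 each, SD). Pik3r1 held 63.3% ± 7.6 of the summed TPM of the 3 genes in KO, with 54.8% ± 4.8 in WT (n = 7 each, SD), with 5 of 7 KO libraries above every WT library. A 2-sided exact permutation test gave p = 0.031 for this difference of 8.52 percentage points, and p = 0.31 when adjusted over the 10 family shares tested. Of 17 alternatives for this share, 16 gave adjusted p-values from 0.122 to 0.547 by exact permutation. Among them was a difference of 6.37 percentage points without the 3 libraries with Cd79a under 10 TPM (adjusted p = 0.379). The exception was leaving out KO replicate 6, the KO library with the lowest share at 50.7% (10.6 percentage points, exact permutation adjusted p = 0.0175). The pairs of shared replicate numbers (8.23 percentage points, exact permutation adjusted p = 0.312) allow few permutations. So do the libraries left without the muscle-rich ones (8.65 percentage points, exact permutation adjusted p = 0.429). A single share could not pass in either, so these alternatives do not decide.

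Akt2, the AKT isoform that insulin's action on glucose uptake depends on, had the smallest unadjusted p of the 10. It stood at 92.3 TPM at the lowest, 142 at the median and 209 at the highest in KO, against 156, 195 and 275 TPM in WT. In KO, replicates 1, 4, 5 and 6 lay below every WT library, and the other 3 lay within the WT range. The log2 fold change was -0.52 ± 0.20 (SE; 95% interval -0.94 to -0.10, limma adjusted p = 0.36). The value was -0.47 ± 0.19 without the 3 libraries with Cd79a under 10 TPM (limma adjusted p = 0.45).

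Akt1, the isoform best known for its role in growth, stood at 67.2 ± 7.3 TPM in KO, with 69.5 ± 12.8 TPM in WT (n = 7 each, SD; log2 fold change -0.03 ± 0.13 SE, limma adjusted p = 0.92). Akt2 exceeded Akt1 in all 14 libraries, at a ratio that ran from 1.37 through a median of 1.94 to 3.26 in KO and from 2.11 through 2.53 to 5.57 in WT, so that the groups overlapped. The ratio of Pik3r1 to Akt2 was chosen after its values were seen and is given without a test. It sets a gene with a positive fold change over one with a negative fold change. How often other such pairs separate as far was not computed. This ratio ran from 0.215 through a median of 0.387 to 0.447 in KO and from 0.0939 through 0.203 to 0.235 in WT, with 6 of 7 KO libraries above every WT library.

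**Figure D2:**
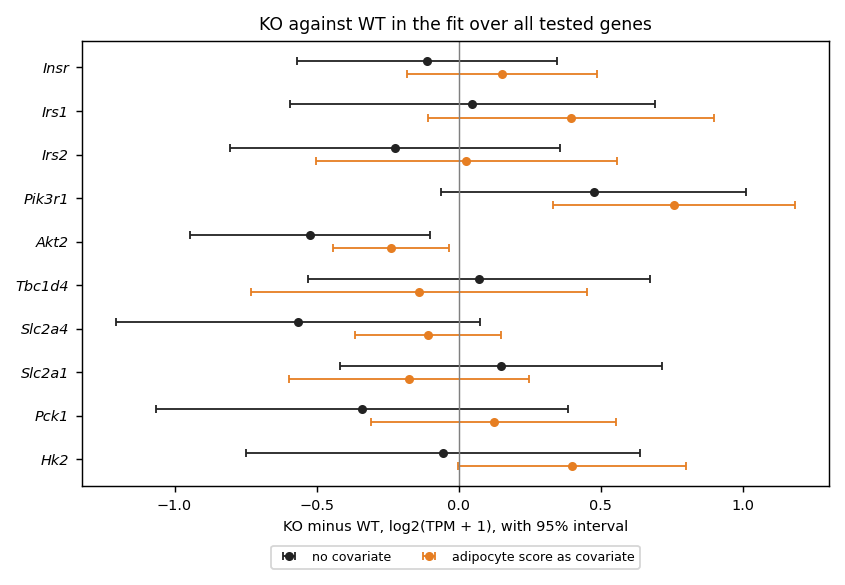
Difference between KO and WT (KO minus WT, log2(TPM + 1)) for each of the 10 genes, with 95% intervals from limma; black points are the fit with no covariate and orange points the fit with the adipocyte marker score as a covariate. Pik3r1 lies at 0.47 and 0.76, Akt2 at -0.52 and -0.24, and Slc2a4 at -0.57 and -0.11.

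Tbc1d4, the Rab GTPase-activating protein that AKT2 inhibits, stood at 14.4 TPM at the lowest, 19.9 at the median and 24.5 at the highest in KO, against 7.63, 24.8 and 31.9 TPM in WT. Every KO library lay within the WT range, and the WT values fell in a low set of 7.63 to 12.6 TPM (replicates 4, 6 and 7) and a high set of 24.8 to 31.9 TPM. The log2 fold change was 0.07 (95% interval -0.53 to 0.67, limma adjusted p = 0.92). Its relative Tbc1d1 was of like level, and Tbc1d4 held 55.6% ± 6.9 of their sum in KO, with 59.8% ± 5.1 in WT (n = 7 each, SD; by exact permutation p = 0.22).

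Slc2a4, which encodes the insulin-responsive transporter GLUT4, had the largest negative difference of the 10. It stood at 46.0 TPM at the lowest, 98.4 at the median and 176 at the highest in KO, against 119.55, 124 and 222 TPM in WT. The same 4 KO libraries as for Akt2 lay below every WT library. In WT, 5 libraries lay between 119.55 and 126 TPM, with replicates 4 and 7 at 222 and 181. The log2 fold change was -0.57 ± 0.30 (SE; 95% interval -1.21 to 0.08, limma adjusted p = 0.48).

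Slc2a1, which encodes the basal transporter GLUT1, was lower than Slc2a4 in every library. It ran from 6.32 through a median of 14.2 to 17.0 TPM in KO and from 5.61 through 13.5 to 17.6 TPM in WT (log2 fold change 0.15, 95% interval -0.42 to 0.72, limma adjusted p = 0.82). The ratio of Slc2a4 to Slc2a1 ran from 2.96 through a median of 5.79 to 27.9 in KO and from 7.00 through 9.33 to 39.6 in WT. Of the summed TPM of the 12 Slc2a genes, Slc2a4 held 64.1% ± 12.5 in KO and 72.0% ± 7.6 in WT, and Slc2a1 held 9.62% ± 5.35 in KO, with 6.18% ± 2.67 in WT (n = 7 each, SD). Neither share passed (by exact permutation p = 0.18 and 0.15).

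Neither of the enzyme genes Hk2 and Pck1 passed, and their wide intervals leave room for a difference in either direction. Hk2, the insulin-induced hexokinase that traps glucose in the cell, stood at 31.7 TPM at the lowest, 54.7 at the median and 94.6 at the highest in KO, against 24.8, 56.5 and 124 TPM in WT (log2 fold change -0.06, 95% interval -0.75 to 0.64, limma adjusted p = 0.95). It was above Hk1 in 13 of 14 libraries and held 72.0% ± 10.7 of the hexokinase TPM in KO, with 71.5% ± 15.4 in WT (n = 7 each, SD; by exact permutation p = 0.96). Pck1 makes the enzyme PEPCK-C, which feeds glycerol synthesis in fat and whose gene insulin represses. It ran from 170.5 through a median of 530.1 to 1178 TPM in KO and from 487 through 739 to 1053 TPM in WT (log2 fold change -0.34, 95% interval -1.07 to 0.39, limma adjusted p = 0.69). The lowest Pck1 value, in KO replicate 4, was far below the next KO value of 458 TPM. Without it the log2 fold change was -0.06, and leaving out 1 library at a time gave -0.53 to -0.06. Pck1 exceeded Pck2, which encodes the mitochondrial form, in all 14 libraries.

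**Figure D3:**
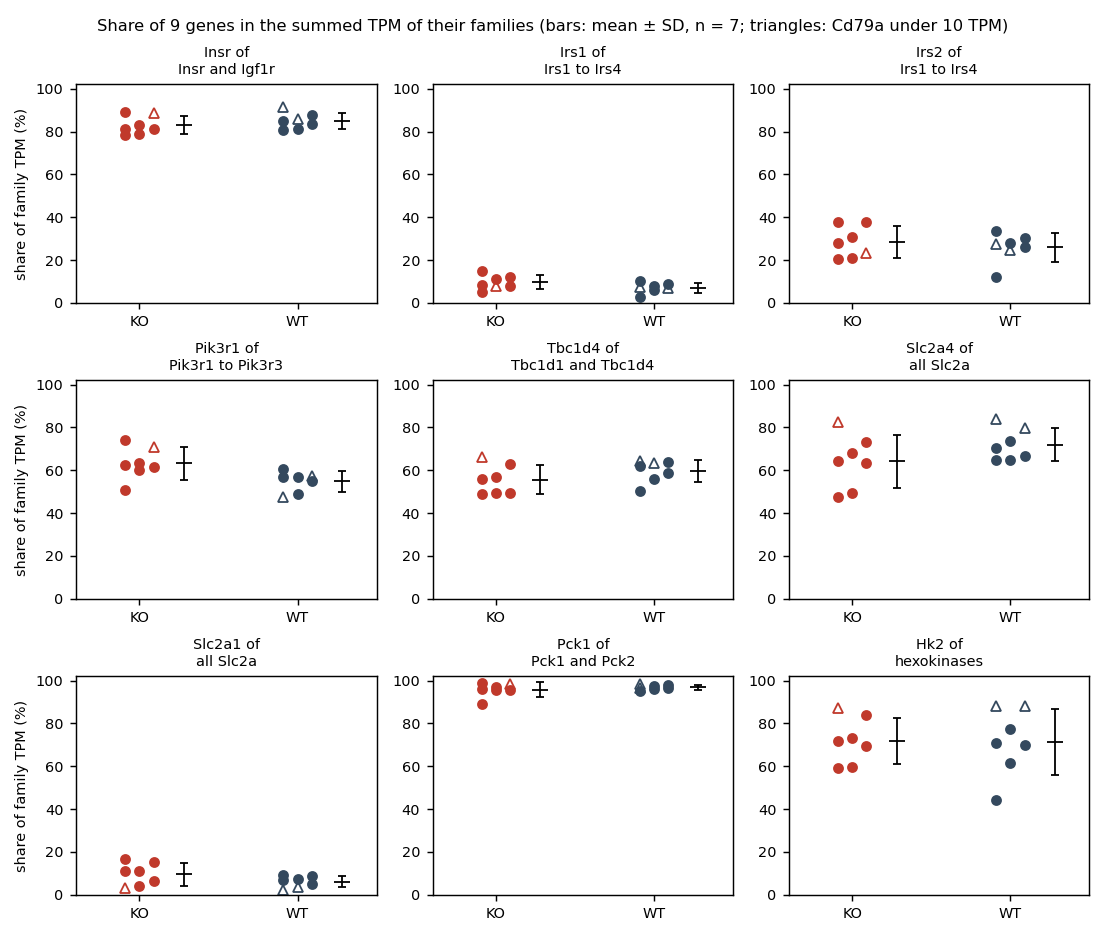
Share in percent of 9 of the genes in the summed TPM of their families, in the KO (left, red) and WT (right, blue) libraries; bars are the mean ± SD of 7 libraries and open triangles the 3 libraries with Cd79a under 10 TPM. The Pik3r1 share averages 63.3% in KO and 54.8% in WT, while the Hk2 shares average 72.0% and 71.5%.

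The 3 libraries with few B-cell transcripts stood apart for several of the 10 genes, in KO and WT alike. Slc2a4 was at 176 TPM in KO replicate 7 and at 181 and 222 TPM in WT replicates 7 and 4, above the other 11 libraries, which reached 153 TPM. Hk2 was at 94.6 TPM in the KO library and at 124 and 85.4 TPM in those WT libraries, against at most 66.6 TPM in the other 11. Slc2a1 ran the other way, at 6.32 TPM in the KO library and at 7.96 and 5.61 TPM in those WT libraries, against at least 8.13 TPM elsewhere. These libraries were picked by Cd79a alone, and no test was made between them and the rest.

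The levels of several of the 10 genes moved with the adipocyte markers from library to library. The adipocyte score, the mean log2(TPM + 1) of Adipoq, Plin1, Cidec, Lep, Fabp4, Lipe, Pparg, Dgat2, Thrsp and Lpl, was 9.39 ± 0.79 in KO, with 9.89 ± 0.41 in WT (n = 7 each, SD; by exact permutation p = 0.16, adjusted over 9 marker lists p = 0.49). KO replicates 1, 4, 5 and 6, which lay below every WT library for Akt2 and Slc2a4, did so for this score as well. Their scores ran from 8.31 to 9.33, and the lowest WT score was 9.45, in replicate 3. In bulk tissue, fewer cells of a type and less RNA per cell cannot be told apart. Over the 11 libraries with Cd79a over 10 TPM, the score was correlated with the log2(TPM + 1) of each gene, as 10 relations with permutation tests adjusted over them. KO and WT were pooled here and group means were not removed, so differences between the groups enter these correlations and their p-values. Slc2a4 followed it most closely (Pearson r = 0.95, adjusted p = 0.0013; Spearman rho = 0.91, adjusted p = 0.0022; unadjusted permutation p = 0.00013 and 0.00022), with r = 0.80 without the 2 libraries farthest from the median score. Akt2 had r = 0.91 (adjusted permutation p = 0.0013; rho = 0.83, adjusted p = 0.0093; unadjusted p = 0.00027 and 0.0028) and r = 0.70 without those 2. For Pck1 r was 0.83 (adjusted permutation p = 0.0023; rho = 0.84, adjusted p = 0.0093; unadjusted p = 0.0007 and 0.0021), and 0.75 without them.

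The other genes followed the score less closely. Insr and Hk2 each had r = 0.64 (adjusted permutation p = 0.064 for both; rho = 0.65 and 0.73, adjusted p = 0.055 and 0.029), with r = 0.41 and 0.42 without the 2 farthest libraries. Slc2a1 had a negative r of -0.55 (adjusted permutation p = 0.11; rho = -0.74, adjusted p = 0.029), and r = -0.65 without them. The Pearson values were 0.55 for Irs1, 0.36 for Pik3r1, 0.32 for Irs2 and -0.18 for Tbc1d4, with adjusted permutation p from 0.12 to 0.59. All the libraries share the fixed TPM total, so a rise of one abundant class of RNA lowers the share of the rest. The part of the adipocyte markers in the differences between KO and WT was not tested beyond the covariate fit given next.

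**Figure D4:**
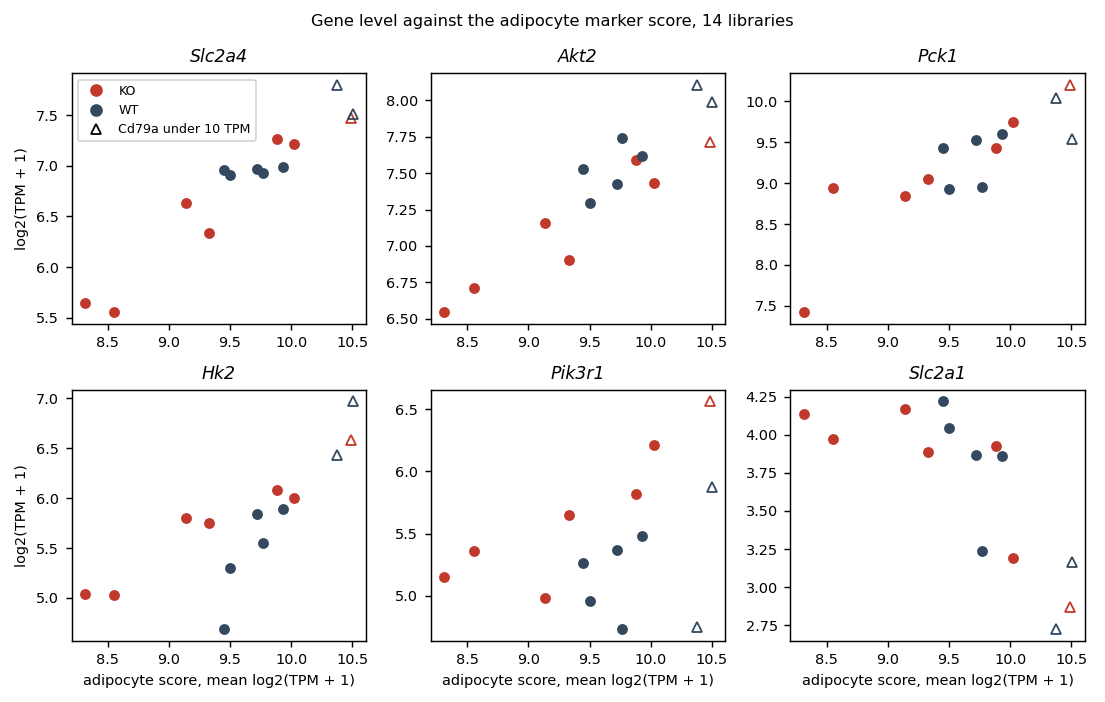
Level of 6 of the genes as log2(TPM + 1) against the adipocyte score, the mean log2(TPM + 1) of 10 adipocyte markers, in 7 KO (red) and 7 WT (blue) libraries; open triangles are the libraries with Cd79a under 10 TPM. Over the 11 other libraries, with KO and WT pooled, r is 0.95 for Slc2a4, 0.91 for Akt2 and 0.83 for Pck1, against 0.36 for Pik3r1 and -0.55 for Slc2a1.

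With the adipocyte score as a covariate in the same fit, the difference between KO and WT was -0.11 ± 0.12 for Slc2a4, -0.24 ± 0.09 for Akt2 and 0.12 ± 0.20 for Pck1 (log2, ± SE; limma adjusted p = 0.88, 0.44 and 0.93). For Pik3r1 it was 0.76 ± 0.20 (95% interval 0.33 to 1.18, limma adjusted p = 0.21), so that it again did not pass; over all genes 0.0476% were called in that fit. Pik3r1 and Akt2 were the 2 of the 10 at an unadjusted p under 0.05 there, against 9.25% of all genes. Hk2 stood at 0.40 ± 0.19 (limma adjusted p = 0.54). Without the 3 libraries with Cd79a under 10 TPM, an alternative chosen after seeing the data, the covariate fit gave 0.61 ± 0.19 for Pik3r1 (limma adjusted p = 0.44).

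Taken as a difference in each library between the gene's log2(TPM + 1) and the adipocyte score, Pik3r1 stood apart by group. It was -3.71 ± 0.40 in KO, from -4.16 to -3.16, and -4.69 ± 0.49 in WT, from -5.63 to -4.19 (n = 7 each, SD). All 7 KO libraries were above all 7 WT libraries, with KO replicate 6 and WT replicate 3 nearest each other at -4.16 and -4.19, a separation that 0.149% of the tested genes showed in that direction and 0.0272% in the other. The group difference was 0.98, beside a median of 0.54 over all tested genes on that scale. Pik3r1 was picked for this statement after its values were seen, and no test is given. Slc2a4 and Akt2 overlapped throughout on the same scale, at -2.80 ± 0.21 in KO and -2.74 ± 0.19 in WT for Slc2a4, and at -2.24 ± 0.39 in KO and -2.22 ± 0.20 in WT for Akt2 (n = 7 each, SD).

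**Figure D5:**
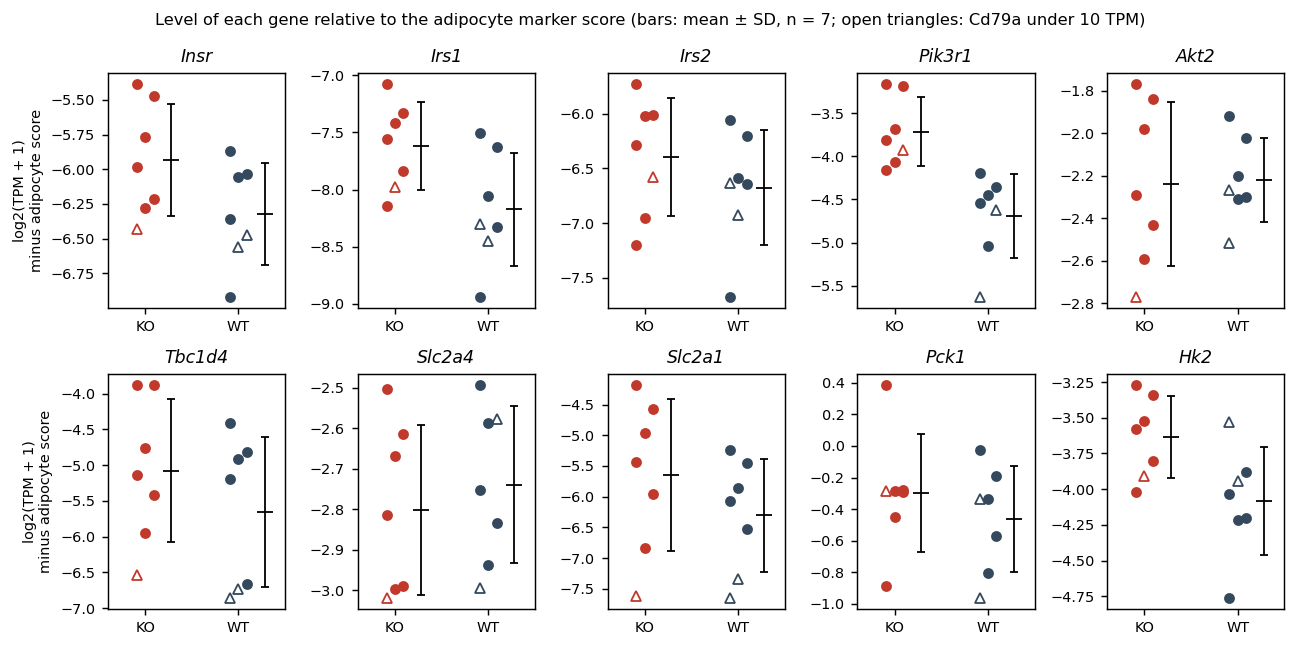
Level of each gene as log2(TPM + 1) minus the adipocyte score of the same library, in the KO (left, red) and WT (right, blue) libraries; bars are the mean ± SD of 7 libraries, open triangles the libraries with Cd79a under 10 TPM, and each panel has its own scale. For Pik3r1 the KO libraries lie between -4.16 and -3.16 and the WT libraries between -5.63 and -4.19.

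The markers of other cell types differed between KO and WT by less than the test could call. The skeletal muscle score was 4.40 ± 2.83 in KO, with 6.02 ± 3.47 in WT (n = 7 each, SD; by exact permutation p = 0.34), and the summed markers ran from 26.3 to 8995 TPM in KO and from 43.7 to 27284 TPM in WT. Muscle also expresses Slc2a4 and Hk2, and the part of muscle RNA in their values was not tested beyond the covariate fit here. KO replicate 7 had a muscle sum of 68.6 TPM with Slc2a4 at 176 TPM and Hk2 at 94.6 TPM. WT replicate 4 had a sum of 27284 TPM with 222 and 85.4 TPM, and WT replicate 7 a sum of 8125 TPM with 181 and 124 TPM. With the muscle score as a covariate Slc2a4 stood at -0.45 ± 0.30, Hk2 at 0.05 ± 0.33 and Akt2 at -0.46 ± 0.20 (limma adjusted p = 0.75, 0.97 and 0.63). The macrophage score was 4.23 ± 0.32 in KO and 4.65 ± 0.67 in WT, and the progenitor score 4.41 ± 0.28 in KO, with 4.89 ± 0.63 in WT (n = 7 each, SD; by exact permutation p = 0.15 and 0.093). B-cell scores were 5.89 ± 2.30 in KO and 4.72 ± 2.92 in WT, with T-cell scores of 5.48 ± 1.68 in KO, with 4.49 ± 2.48 in WT (by exact permutation p = 0.31 and 0.33). Endothelium, liver and thermogenic fat scores had p by exact permutation of 0.40 to 0.78, and none of 7 kidney and intestine markers reached the filter.

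The rest of the pathway held no called gene either. Among 36 tested genes of 37 that carry the insulin signal forward, 19 log2 fold changes were positive and 17 negative, with a median of 0.05 and none at an unadjusted p under 0.05. The smallest p belonged to Rictor, a subunit of the mTORC2 kinase that phosphorylates AKT, at 6.70 ± 1.73 TPM in KO, with 4.77 ± 1.73 TPM in WT (n = 7 each, SD; limma adjusted p = 0.46). Pde3b, the phosphodiesterase through which insulin restrains lipolysis, stood at 43.0 ± 19.8 TPM in KO, with 56.3 ± 15.3 TPM in WT (limma adjusted p = 0.51). All 24 genes listed as brakes were tested, 14 positive and 10 negative, and 1 was lower at an unadjusted p under 0.05, a share below the 6.74% of all genes. That gene was Eif4ebp1, the translation repressor 4E-BP1 that mTORC1 inactivates, at 557 ± 275 TPM in KO, with 861 ± 281 TPM in WT (log2 fold change -0.71 ± 0.31 SE, limma adjusted p = 0.41). Trib2, a pseudokinase whose family binds AKT, stood at 15.9 ± 5.4 TPM in KO, with 10.2 ± 5.0 TPM in WT (limma adjusted p = 0.45).

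Of 29 tested genes of 30 for GLUT4 vesicle traffic, 16 were positive and 13 negative, and 3 were lower in KO at an unadjusted p under 0.05, against 6.74% of all genes in that direction. Exoc7, a subunit of the exocyst that tethers vesicles at the plasma membrane, ran from 17.5 to 21.9 TPM in KO and from 21.7 to 35.9 TPM in WT (log2 fold change -0.43 ± 0.12 SE, limma adjusted p = 0.23). The ranges touch only at their edges. Rab13, a small GTPase of vesicle delivery, averaged 17.8 ± 6.5 TPM in KO and 24.8 ± 5.0 TPM in WT, and Lrp1, a cargo receptor of GLUT4 vesicles, 143 ± 65 TPM in KO, with 226 ± 87 TPM in WT (n = 7 each, SD; limma adjusted p = 0.40 and 0.41). Among the other sugar transporters, 6 of 9 could be tested, 3 positive and 3 negative, with the smallest p for Slc2a13 at 2.47 ± 1.14 TPM in KO, with 4.04 ± 1.73 TPM in WT (limma adjusted p = 0.45).

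Genes of glucose phosphorylation and glycogen had 12 negative and 3 positive log2 fold changes among 15 tested of 18, with a median of -0.12, where 45.4% of all genes were negative. Pygb, a glycogen phosphorylase, averaged 63.0 ± 25.7 TPM in KO and 95.4 ± 28.9 TPM in WT, and Gyg, the primer protein glycogenin, 63.3 ± 14.3 TPM in KO, with 82.3 ± 16.0 TPM in WT (n = 7 each, SD; limma adjusted p = 0.39 and 0.41). These were the 2 of 15 at an unadjusted p under 0.05, where 6.74% of all genes were lower at that level. In the glycerol synthesis list, 19 of 20 were tested, 7 positive and 12 negative, and 3 were lower at that level, beside the same 6.74% of all genes: Pdk4 and Pdk2, kinases that switch off pyruvate dehydrogenase, and G6pc3, a glucose 6-phosphatase. Pdk4 averaged 8.26 ± 3.41 TPM in KO, with 14.9 ± 6.5 TPM in WT (n = 7 each, SD; log2 fold change -0.76 ± 0.28 SE, limma adjusted p = 0.34). For 15 tested of 17 target genes of the FOXO factors, which AKT keeps out of the nucleus, 7 were positive and 8 negative. Pnpla2, the lipase ATGL, was the one of these 15 at an unadjusted p under 0.05, a share close to the 6.74% of all genes, at 987 ± 482 TPM in KO, with 1539 ± 421 TPM in WT (limma adjusted p = 0.40). The adipocyte markers themselves had 9 of 10 negative values with a median of -0.55, and their part in these lists was not tested.

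The genes whose levels were most like each of the 10 were taken by Pearson r of log2(TPM + 1), after removal of the group mean, over the 11 libraries with Cd79a over 10 TPM and among 12425 named protein-coding genes. For Slc2a4 these were Sod2 (r = 0.98), Gys1 (0.98) and Suclg1 (0.97), which encode a mitochondrial superoxide dismutase, the glycogen synthase of muscle and fat, and a subunit of a citric acid cycle enzyme. Akt2 was most like Idh3g (0.99), Rab3d (0.97) and Ndufv1 (0.97), of which Idh3g and Ndufv1 encode mitochondrial enzymes. Pck1 was most like Lrp1, Cpne8 and Npr2 (0.97 to 0.98). Slc2a1 was most like Sart3, Adcy7 and Dennd3 (0.99 or more). Tbc1d4 was most like Abhd2, Umad1 and Dcaf1 (0.98 to 0.99), Insr like Vsig10l, Stt3b and Tex2 (0.98 to 0.99), and Irs1 like Slc38a10, Fn3krp and Slc25a22 (0.96 to 0.97). Irs2 was most like Cdh2, Sema6d and Rnf215 (0.96 to 0.98). For Pik3r1 they were Colca2, Triqk and Mmachc (0.94 to 0.96), and for Hk2 Mfsd4b1, Polb and Retsat (0.91 to 0.92). Over all 14 libraries the same genes had r of 0.90 or more for Insr, Irs1, Akt2, Slc2a4, Slc2a1 and Pck1, and lower values of 0.45 to 0.69 for Irs2, 0.54 to 0.92 for Hk2, 0.72 to 0.85 for Pik3r1 and 0.73 to 0.97 for Tbc1d4. With this many candidates high values arise readily, and the libraries share differences in cell make-up.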

How the data were processed

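The deposited table holds gene-level TPM values (length-scaled shares of transcripts), with the same sum in every library. The submitters' processing notes name Bowtie 0.12.2 and the builds mm8 and mm9 without a role. What made the TPM values, the annotation and the use of strand is not given in the sources used here, so no coordinates are given for measured rows. TPM keeps no read numbers: depth is unknown, and the spread between libraries is the error.

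Rows of 1 symbol were summed (56552 rows to 54955 genes). Genes that reached 1 TPM in 7 or more libraries were tested on log2(TPM + 1) with limma 3.58.1 in R 4.3.3 (trend, robust prior, 2-sided; Benjamini-Hochberg). Single values were compared by 2-sided exact permutation of the 14 libraries (3432 splits, smallest p 0.00058), and correlations with 100000 resamples. Named genes were the 10, their families, up to 4 genes of smallest p per list, and the 3 most like each. The genes and lists were chosen with earlier results of these data known. Tested on simulated data with 200 changed genes of 14719, the fit found 48.2% of 2-fold and 87.6% of 4-fold changes. False calls averaged 2.2 in 5 runs, with at most 10 in a run. The changes were added on the log2(TPM + 1) scale, so for genes of low level they are larger in TPM. Promoters came from RefSeq (GRCm38.p6). Alternatives were other pseudocounts, filters and scalings, summed or separate rows, weights, marker scores as covariates, libraries left out and a replicate block. The family share of Akt2 was tested and is not reported here.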

Additional observations from a re-analysis of the deposited data

Results flagged for a closer look

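Within groups of 7 libraries, 2 of 40 sets of values tested had a library whose gap to the next was large against the range of its group, and chance flags about 1 in 20. In KO replicate 4, Pck1 held 88.87% of the summed TPM of Pck1 and Pck2, the lowest of the KO libraries, with Pck1 at 170.5 TPM; the gap was 0.696 of the KO range. In WT replicate 6, Irs2 held 11.86% of the summed TPM of Irs1 to Irs4, the lowest of the WT libraries, with Irs2 at 3.25 TPM; the gap was 0.591 of the WT range.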

How the results depend on the processing

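Over all genes, the 3 calls became 1 with no filter on low values and 1 with rows as deposited, 2 without limma's trend and robust prior, and 0 with the muscle score as covariate, without the 3 libraries with Cd79a under 10 TPM, without the libraries with muscle sums above 1000 TPM, and in the 10 libraries with shared replicate numbers. They became 6 with TPM rescaled without mitochondrial genes, 7 with the adipocyte score, 8 with median-ratio scaling, 19 with quantile normalization, 823 (5.59%) with library weights, and 0 in the adipocyte covariate fit without the 3 libraries, chosen after seeing the data. Leaving out 1 library gave 0 to 6. The split of 0 higher and 3 lower was 13 and 6 with quantile normalization, 3 and 5 with median ratios and 2 and 4 without mitochondrial genes. None of the 10 genes was called in any of these fits; the lowest adjusted p was 0.0802, for Akt2 with library weights.

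Pik3r1 (0.17 to 0.76), Akt2 (-0.62 to -0.21) and Slc2a4 (-0.71 to -0.05) kept their direction in all 32 alternatives. The other log2 fold changes crossed 0 as follows. With the adipocyte score, Insr was 0.15, Irs2 0.027, Tbc1d4 -0.14, Slc2a1 -0.17, Pck1 0.12 and Hk2 0.40, and in that fit without the 3 libraries Insr was 0.15, Tbc1d4 -0.23, Slc2a1 -0.15, Pck1 0.072 and Hk2 0.51. With the B-cell score Insr was 0.0081, Tbc1d4 -0.072, Slc2a1 -0.055 and Hk2 0.18; with the muscle score Tbc1d4 was -0.0093 and Hk2 0.055. Quantile normalization gave -0.063 for Irs1 and 0.016 for Hk2, library weights -0.28 for Irs1 and -0.29 for Tbc1d4. Without the 3 libraries Tbc1d4 was -0.11 and Hk2 0.16; without the muscle-rich libraries Insr was 0.14, Irs2 0.23 and Hk2 0.10, and the share differences were 0.74 percentage points for Tbc1d4 and -0.24 for Hk2. The cause was not tested. Leaving out 1 library at a time gave -0.10 to 0.19 for Irs1, -0.12 to 0.21 for Tbc1d4, -0.24 to 0.14 for Hk2, and share differences of -1.54 to 0.10 for Pck1 and -4.03 to 3.27 for Hk2; the Pik3r1 share ran from 6.67 to 10.6. Irs1 gave no value at the 5 TPM filter.

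With the replicate block over the 5 shared numbers, 0 genes were called, Pik3r1 was at 0.46 (limma adjusted p = 0.49) and the Hk2 share difference was -2.27. In the same 10 libraries, the SE of Pik3r1 was 0.15 with the block and 0.32 without it. For Akt2 it was 0.25 and 0.26, and for Pck1 0.46 and 0.45. Correlations of same-numbered libraries ran from -0.672 to 0.803, and 3 of 10 correlated best with their own number. The highest was for number 7, where both libraries had Cd79a under 10 TPM. Because cell make-up also differed between libraries, these correlations do not decide whether the numbers pair them. Whether same-numbered libraries shared an origin was not tested. Depth is unknown, so values near 0 TPM carry a counting error that cannot be given.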
